A study of Homo sapiens with 12 samples.

Results

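Wnt signalling genes were followed in SW1783 cells, a human astrocytoma line, exposed for 24 h to ACD, the water extract of Aconitum carmichaeli Debeaux. The genes were the protein-coding WNT ligands, Frizzled (FZD) receptors, and Dickkopf (DKK1 to DKK4) and secreted Frizzled-related (SFRP1 to SFRP5) antagonists, together with LRP5, LRP6, AXIN1, AXIN2, TCF7, TCF7L1, TCF7L2, LEF1, RNF43, ZNRF3 and NKD1. They were chosen by symbol, which gave 48 genes of the 60675 gene IDs measured: 19 WNT, 10 FZD, 4 DKK, 4 SFRP, 2 LRP, 4 TCF/LEF and 5 feedback or scaffold genes. The third SFRP goes by the symbol FRZB and was counted among the other pathway genes. The 4 groups of cells, each with 3 libraries, received PBS with 2% DMSO (vehicle) or the extract at 20 µg/mL (low), 100 µg/mL (medium) or 500 µg/mL (high). All 4 groups shared the line, the medium and the 24 h exposure. The authors prepared the extract stock in PBS with 2% DMSO as well, so DMSO was not confined to the vehicle group. What diluted the stock for the lower doses is not stated. The protocol text of the samples speaks of a different herb, so that the identity of the extract rests on sample titles and treatment labels. No source used here says whether the 3 libraries of a group came from separate cultures, and p-values then measure the spread between these libraries, which may be technical.

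Wnt proteins are secreted, lipid-modified signals that bind a Frizzled receptor together with the co-receptor LRP5 or LRP6. In the canonical branch this stops a complex built on Axin and APC from marking beta-catenin for destruction, and beta-catenin then acts with TCF/LEF factors on target genes. Several targets feed back on the pathway: AXIN2 rebuilds the destruction complex, RNF43 and ZNRF3 remove Frizzled from the surface, and NKD1 acts on Dishevelled. Other branches, with WNT5A as their best known ligand, act through ROR receptors and planar polarity proteins without beta-catenin. Wnt signals pattern the developing brain and are studied in glioma for growth and invasion.

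Total counts per library lay between 18863863 and 24200576. Of 12 astrocyte and glioma markers, 5 had a mean of at least 10 normalised counts (SLC1A3, GJA1, SOX9, NES and VIM), GFAP reached at most 6 counts in a library, S100B at most 5 and AQP4 was at 0 throughout. The summed level of that list lay between 91845 and 99695 normalised counts with vehicle and between 112523 and 114384 at the high dose, carried by VIM (mean 88412, then 108048). The other 4 went down in mean, SLC1A3 from 690 to 126, GJA1 from 4914 to 3727, SOX9 from 1434 to 1206 and NES from 214 to 64.7. OLIG2, under that mean over all libraries, went up with dose, at 1.56 (vehicle), 3.39 (low), 5.84 (medium) and 24.5 (high). It reached at most 27 counts in a library. All 5 fibroblast or mesenchymal markers were above that mean, and their sum lay between 121559 and 125891 with vehicle, 110859 and 119758 (low), 88029 and 95171 (medium), and 33457 and 35697 (high dose). The sum of 5 epithelial markers, 2 of them above that mean and none at 0 throughout, moved from between 4874 and 5078 to between 1809 and 1890. It was carried by KRT18 (mean 4600, then 1575), whereas EPCAM reached at most 4 counts in a library and CDH1 at most 2. The sum of 4 neuron markers, 3 of them above that mean and none at 0 throughout, moved from between 894 and 916 to between 480 and 532, with SNAP25 going from a mean of 704 to 167, MAP2 the other way from 181 to 322, and SYP at 14.5 and 13.2. Of the leukocyte markers, CD68 went from a mean of 2864 to 3953 and PTPRC from 275 down to 84.8, and CD3E was at 0 throughout. The sum of 4 endothelial markers, of which KDR alone was above that mean, lay between 575 and 604 and then between 616 and 675. These marker levels moved with dose beside the results that follow, and their part in them was not tested. In such bulk samples, fewer cells of a type and less RNA per cell cannot be told apart.

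Promoter sequence from RefSeq, 250 bases before to 50 after the start of a gene on GRCh38.p14, was given for 32 of the 48 genes, as 39 promoters because 6 genes had several. The core recognised by TCF/LEF factors, CTTTGAA or CTTTGAT on either strand, lay in 1 of the 39, that of DKK1, and in 6.86% of all 35116 promoters searched. DKK1 encodes a secreted antagonist and is itself a known target of the pathway, and its promoter, chr10:52314031-52314330 on the plus strand, is shown with that core in capitals.
DKK1: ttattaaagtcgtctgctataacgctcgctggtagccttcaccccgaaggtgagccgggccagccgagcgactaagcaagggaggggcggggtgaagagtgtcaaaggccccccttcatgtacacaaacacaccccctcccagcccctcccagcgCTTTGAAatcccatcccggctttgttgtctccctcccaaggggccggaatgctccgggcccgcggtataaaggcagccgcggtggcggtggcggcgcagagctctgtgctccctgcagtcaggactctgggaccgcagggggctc
The ATF4 composite element TGATGNAA, searched on both strands, was in 0 of the 39 and in 3.62% of all promoters. The GC box GGGCGG, on either strand, was in 29 of the 39 (74.4%) and in 45% of all promoters. The 6 genes that were differentially expressed at the high dose and had sequence had 8 promoters, of which 6 held a GC box, and WNT5A and TCF7 each had a further promoter without one. Those of 2 receptors that fell and of a receptor and a scaffold that rose are set side by side with GC boxes in capitals: FZD1 (chr7:91264183-91264482, plus strand), FZD4 (chr11:86955346-86955645, minus strand), FZD5 (chr2:207769857-207770156, minus strand) and AXIN1 (chr16:352674-352973, minus strand).
FZD1: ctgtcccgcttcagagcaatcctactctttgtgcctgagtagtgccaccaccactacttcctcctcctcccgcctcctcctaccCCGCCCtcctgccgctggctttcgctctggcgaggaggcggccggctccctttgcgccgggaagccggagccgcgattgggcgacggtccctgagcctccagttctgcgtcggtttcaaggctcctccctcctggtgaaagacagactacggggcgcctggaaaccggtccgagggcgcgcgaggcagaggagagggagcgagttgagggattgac
FZD4: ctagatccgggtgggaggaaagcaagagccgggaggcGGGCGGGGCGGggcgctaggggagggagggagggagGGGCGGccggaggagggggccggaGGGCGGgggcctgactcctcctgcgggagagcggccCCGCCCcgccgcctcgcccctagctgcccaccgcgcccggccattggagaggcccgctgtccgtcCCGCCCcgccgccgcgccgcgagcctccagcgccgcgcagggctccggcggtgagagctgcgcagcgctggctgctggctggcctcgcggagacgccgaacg
FZD5: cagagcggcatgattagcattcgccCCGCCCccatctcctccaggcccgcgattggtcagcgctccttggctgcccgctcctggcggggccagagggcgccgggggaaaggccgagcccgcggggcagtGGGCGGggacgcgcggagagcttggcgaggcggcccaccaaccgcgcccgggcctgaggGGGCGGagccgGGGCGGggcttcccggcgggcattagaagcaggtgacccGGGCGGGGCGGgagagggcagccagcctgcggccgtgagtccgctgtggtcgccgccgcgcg
AXIN1: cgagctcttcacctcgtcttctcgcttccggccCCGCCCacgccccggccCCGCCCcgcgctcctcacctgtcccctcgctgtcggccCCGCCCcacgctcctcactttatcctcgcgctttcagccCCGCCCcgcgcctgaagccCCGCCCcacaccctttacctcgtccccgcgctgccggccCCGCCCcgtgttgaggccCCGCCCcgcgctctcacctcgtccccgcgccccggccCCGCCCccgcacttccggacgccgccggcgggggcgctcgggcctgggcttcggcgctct
GC content was 65.7% for FZD1, 79.7% for FZD4, 77% for FZD5 and 78% for AXIN1, beside a median of 58.7% over all promoters. GC boxes were present in genes of both directions.

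Of the 48 genes, 29 had a mean of at least 10 normalised counts (counts divided by the DESeq2 size factor) over the 12 libraries. A differentially expressed gene (DEG) had an adjusted p under 0.05 and a fold change over 1.5, and rose or fell is used of any gene with an adjusted p under 0.05 in the DESeq2 Wald test. At the high dose 10 of the 36 Wnt genes with an adjusted p were DEGs (27.8%), 2 higher and 8 lower, beside 18.2% of all tested genes (8.66% higher and 9.57% lower). The adjusted p alone was passed by 19 of the 36, beside 46.5% of all tested genes. All 10 were among the 29, and among all genes with such a mean 21.7% were DEGs. The groups did not overlap for 22 of the 29, beside 70% of all genes with that mean. The median log2 fold change of the 29 was -0.25, beside 0.00 over all genes with that mean, with 10 above 0 and 19 below. At the medium dose 1 of 28 tested was a DEG (3.57%), a lower one, beside 3.81% of all tested genes (2.34% higher and 1.48% lower), and the median was -0.06. The adjusted p alone was passed by 12 of the 28 (29.5% of all tested genes), and the groups did not overlap for 17 of the 29 (48% of all genes with that mean). At the low dose the DESeq2 test called 0 of 17, beside 0.118% of all tested genes (0.0967% higher and 0.0215% lower), and the groups did not overlap for 12 of the 29, beside 21.7% of all genes with that mean. The edgeR quasi-likelihood test also called 0 there, and 7 of the 42 genes with a count had an unadjusted p under 0.05 in DESeq2 (16.7%, beside 5.01% of all genes with a p). These 2 shares were not matched for level. A mean of at least 10 was held by 29 of the 42, but by only 15282 genes where 30802 had a p. At that dose the adjustment left out genes with means under 263, and with them the smaller Wnt genes.

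**Figure D1:**
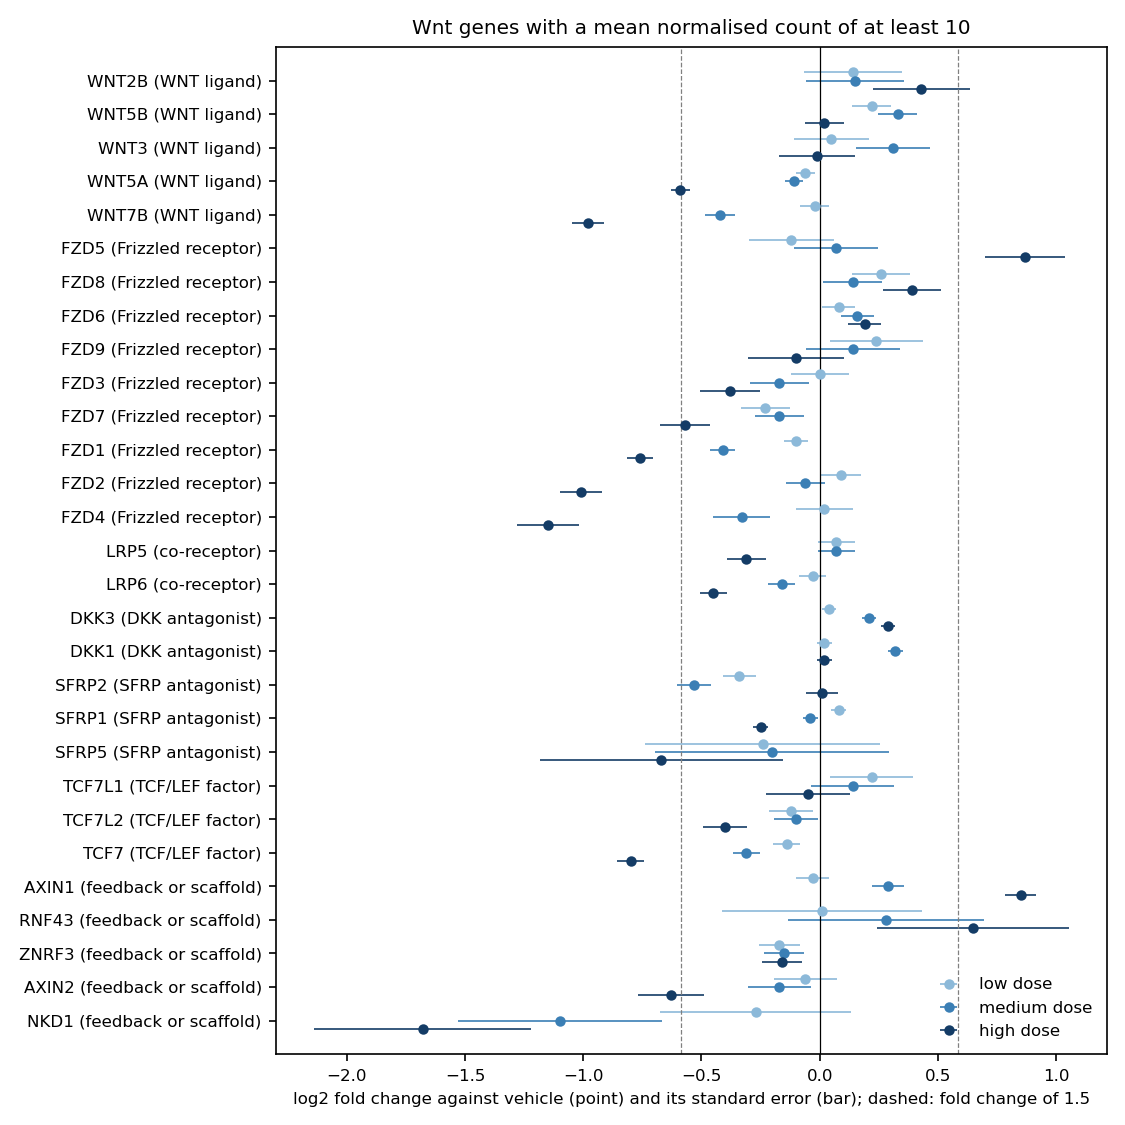
Log2 fold change against vehicle (horizontal axis, points; bars are standard errors) of the 29 Wnt genes with a mean of at least 10 normalised counts, at each of the 3 doses; dashed lines mark a fold change of 1.5. At the high dose the values run from -1.68 for NKD1 to 0.87 for FZD5, while at the low dose they stay between -0.34 and 0.26.

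Among the ligands, WNT5A and WNT7B fell at the high dose, and no other WNT gene passed the test there in the main DESeq2 fit. Only 5 of the 19 WNT genes had a mean of at least 10 normalised counts. Per kilobase of transcript with vehicle, WNT5A was at 577 ± 17.0 normalised counts (SD, n = 3), WNT7B at 233 ± 2.42, WNT5B at 218 ± 10.0, WNT3 at 36.5 ± 4.21 and WNT2B at 6.85 ± 0.655, and the ranges of neighbours in that order did not overlap. At the high dose WNT5B, at 222 ± 11.7 per kilobase, stood above WNT7B at 118 ± 2.88, again with no overlap of neighbours.

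WNT5A (ENSG00000114251, chromosome 3, 55465715 to 55490539, GRCh38), the main ligand of the branches without beta-catenin, had 3274, 3367 and 3472 normalised counts with vehicle. The low dose libraries had 3242, 3262 and 3202, the medium dose libraries 3240, 3129 and 3014, and those of the high dose 2285, 2178 and 2277. The high dose libraries lay below every other library, and the medium dose ones below every vehicle library. The change from vehicle was -0.59 on the log2 scale (SE 0.0395, DESeq2 adjusted p 2.41e-48) for the high and -0.11 (adjusted p 0.0191) for the medium dose. WNT5A stood close to the fold threshold and was no DEG at the high dose without vehicle replicate 3 (-0.57) or without high replicate 2 (-0.56).

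WNT7B (ENSG00000188064, chromosome 22, 45920366 to 45977162), a ligand that acts on beta-catenin in brain endothelium, had 926, 910 and 927 normalised counts with vehicle and 902, 923 and 900 at the low dose. It fell to 687, 695 and 682 at the medium dose and to 480, 460 and 461 at the high dose, so that the vehicle, medium and high dose libraries formed separate ranges. The log2 fold changes were -0.42 (DESeq2 adjusted p 7.53e-10) and -0.98 (SE 0.0669, adjusted p 3.38e-47). WNT3, a canonical ligand, had 108, 135 and 118 normalised counts with vehicle and 116, 119 and 123 at the high dose (log2 fold change -0.01, DESeq2 adjusted p 0.954). WNT2B was at 76.9, 83.2 and 68.7 with vehicle and at 118, 97.3 and 95.4 at the high dose. Its groups did not overlap, but the difference of 0.43 had a DESeq2 adjusted p of 0.0695. Over 16 DESeq2 and edgeR fits that adjusted p ran from 0.0161 to 0.254. On the opposite strand ST7L (248 normalised counts with vehicle, 289 at the high dose) overlaps 21.5% of the WNT2B exon bases. The deposited WNT2B values were not whole in all 12 libraries. The WNT sum per kilobase was 1085 ± 27.3 with vehicle, 1095 ± 24.3 at the low, 1048 ± 21.0 at the medium and 781 ± 19.3 at the high dose.

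Frizzled receptors moved in both directions at the high dose. Of 9 tested, 4 were DEGs (44.4%), beside 18.2% of all tested genes (8.66% higher and 9.57% lower). FZD1, FZD2 and FZD4 were lower and FZD5 was higher. By less than the fold threshold, FZD3 and FZD7 fell and FZD6 and FZD8 rose. Over 16 DESeq2 and edgeR fits, their highest adjusted p was 0.0643 for FZD3, 3.75e-05 for FZD7, 0.397 for FZD6 and 0.0495 for FZD8. FZD9 did not pass the test (log2 fold change -0.10, DESeq2 adjusted p 0.726), and FZD10 was at 0 in every library. FZD1, FZD2 and FZD7 form the subfamily closest in sequence, as do FZD5 with FZD8 and FZD3 with FZD6. Counts of every FZD gene but FZD4 were whole numbers as deposited, and FZD4 had values that were not whole in 11 libraries.

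FZD1 (ENSG00000157240, chromosome 7, 91264433 to 91271326) had 1523, 1479 and 1536 normalised counts with vehicle and 1443, 1423 and 1375 at the low dose. It fell to 1094, 1142 and 1173 at the medium dose (log2 fold change -0.41, DESeq2 adjusted p 1.09e-13) and to 906, 880 and 902 at the high dose (-0.76, SE 0.0535, adjusted p 8.06e-44). The 4 groups did not overlap, in the order of the dose. FZD2 (ENSG00000180340, chromosome 17, 44557484 to 44561262) had 636, 710 and 740 normalised counts with vehicle, then 737, 762 and 728 (low dose), 678, 678 and 650 (medium) and 311, 324 and 398 (high). Only the high dose libraries stood apart, with a change of -1.01 on the log2 scale (SE 0.0891, DESeq2 adjusted p 1.4e-28), against -0.06 at the medium dose (adjusted p 0.667).

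FZD4 (ENSG00000174804, chromosome 11, 86945679 to 86955395), which also serves Norrin in retinal and brain vessels, had 320, 314 and 336 normalised counts with vehicle and 317, 365 and 298 at the low dose. It had 276, 240 and 256 at the medium and 127, 135 and 174 at the high dose, both below the vehicle range. The log2 fold changes were -0.33 (DESeq2 adjusted p 0.0275) and -1.15 (SE 0.13, adjusted p 1.3e-17). PRSS23 on the opposite strand overlaps 18.9% of the FZD4 exon bases and went from 4548 to 2089 normalised counts (log2 fold change -1.12). Whether counting used the strand is not stated, and the part of PRSS23 reads in the FZD4 value was not tested.

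FZD5 (ENSG00000163251, chromosome 2, 207762598 to 207769906) went the other way. It had 101, 109 and 86.4 normalised counts with vehicle, then 78.9, 97.9 and 97.3 (low dose), 91.6, 109 and 111 (medium) and 172, 168 and 203 (high). The high dose libraries alone lay above the rest (log2 fold change 0.87, SE 0.169, DESeq2 adjusted p 1.2e-06). FZD8, its closest relative, had 195, 218 and 210 with vehicle and 240, 281 and 292 at the high dose (0.39, DESeq2 adjusted p 0.00428). FZD7 had 376, 358 and 371 with vehicle and 249 in each high dose library (-0.57, DESeq2 adjusted p 3.51e-07), FZD3 changed by -0.38 (adjusted p 0.00677) and FZD6 by 0.19 (adjusted p 0.0176).

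The order of the receptors changed with these shifts. Per kilobase with vehicle, FZD1 (219 ± 4.34 normalised counts) stood above FZD2 (184 ± 14.1) and FZD6 (166 ± 2.52), followed by FZD7 at 80.3, FZD8 at 51.3, FZD4 at 43.7, FZD9 at 33.6, FZD3 at 18.0 and FZD5 at 14.0. At the high dose FZD6 came first at 190 ± 5.69, above FZD1 at 130 ± 2.03 and FZD2 at 91.1 ± 12.3, and FZD5 at 25.7 stood above FZD4 at 19.7 and FZD3 at 13.9. The ranges of neighbours did not overlap in either order. Of the summed Frizzled level, FZD1, FZD2 and FZD7 held 59.7% with vehicle, then 57.1% (low), 54.5% (medium) and 44.2% (high dose). FZD5 and FZD8 held 8.06% with vehicle and 14.9% at the high dose, and FZD3 and FZD6 22.8% and 32.7%. The sum itself was 811 ± 21.0 with vehicle and 623 ± 20.3 at the high dose, so a share also moved with the fall of the other receptors.

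**Figure D2:**
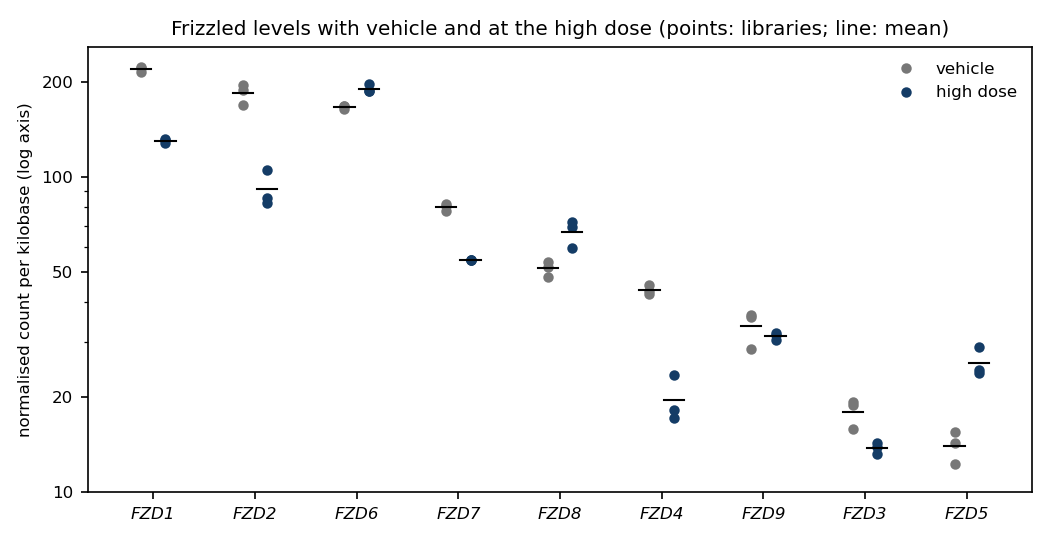
Frizzled levels in normalised counts per kilobase of transcript (vertical log axis) with vehicle and at the high dose, with each library as a point and the mean as a line. FZD1 and FZD2 lead with vehicle (219 and 184), and FZD6 leads at the high dose (190).

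Both co-receptors fell at the high dose by less than the fold threshold. LRP6 had 1468, 1455 and 1386 normalised counts with vehicle, then 1403, 1353 and 1456 (low dose), 1288, 1352 and 1231 (medium) and 1095, 984 and 1074 (high). The medium and high dose libraries lay below the vehicle range, with log2 fold changes of -0.16 (DESeq2 adjusted p 0.0261) and -0.45 (adjusted p 5e-14). LRP5 had 594, 578 and 586 with vehicle, then 561, 670 and 617 (low dose), 588, 633 and 624 (medium) and 477, 464 and 474 (high). All of its high dose libraries lay below the vehicle range (-0.31, DESeq2 adjusted p 0.000347), as did the low dose library at 561.

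No DKK or SFRP antagonist was a DEG at any dose in the main DESeq2 fit. At the high dose only 2 DKK and 4 SFRP genes were tested, too few to set beside the share of all genes. Of all tested genes, 18.2% were DEGs at the high, 3.81% at the medium and 0.118% at the low dose. With total counts as size factors, SFRP2 was a DEG at the medium dose (log2 fold change -0.65). DKK1 and SFRP2 turned at the medium dose, and so did the ligand WNT5B. These 3 were the Wnt genes that moved against vehicle at the medium dose and moved back between medium and high, each at a DESeq2 adjusted p under 0.05, of 28 tested in both. The same held for 2.02% of all genes tested at the medium dose. DKK1 (chromosome 10), which blocks LRP6 and was the most abundant antagonist per kilobase (3755 ± 105 normalised counts with vehicle), had 6875, 6900 and 6560 normalised counts with vehicle and 7188, 6648 and 6809 at the low dose. It had 8450, 8477 and 8413 at the medium and 7084, 6809 and 6798 at the high dose. The medium dose libraries stood above all others, and the high dose libraries overlapped vehicle (log2 fold change 0.32, SE 0.0318, DESeq2 adjusted p 1.18e-21 for the medium and 0.02, adjusted p 0.588 for the high dose). PRKG1-AS1 on the opposite strand, at 3.62 normalised counts with vehicle and 8.83 at the high dose, overlaps 10.2% of the DKK1 exon bases.

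SFRP2, a secreted Frizzled-like binder of Wnt proteins, moved the opposite way. It had 739, 783 and 789 normalised counts with vehicle, then 623, 592 and 609 (low dose), 551, 544 and 502 (medium) and 787, 744 and 790 (high). The low and medium dose libraries formed separate ranges under vehicle, and the high dose libraries lay within or just above the vehicle range. Its log2 fold changes were -0.34 at the low dose (DESeq2 adjusted p 0.000172), -0.53 at the medium dose (adjusted p 3.05e-12) and 0.01 at the high dose (adjusted p 0.961). SFRP2 was the single Wnt gene with an adjusted p under 0.05 at the low dose, beside 3.29% of all genes tested there. WNT5B, a ligand close to WNT5A, had 464, 508 and 494 normalised counts with vehicle, then 606, 574 and 527 (low dose), 605, 636 and 602 (medium) and 480, 482 and 527 (high). It rose at the medium dose (0.33, DESeq2 adjusted p 0.000417), whereas the low dose value of 0.22 had an adjusted p of 0.135 although no library overlapped vehicle. At the high dose it was at 0.02 (adjusted p 0.866).

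**Figure D3:**
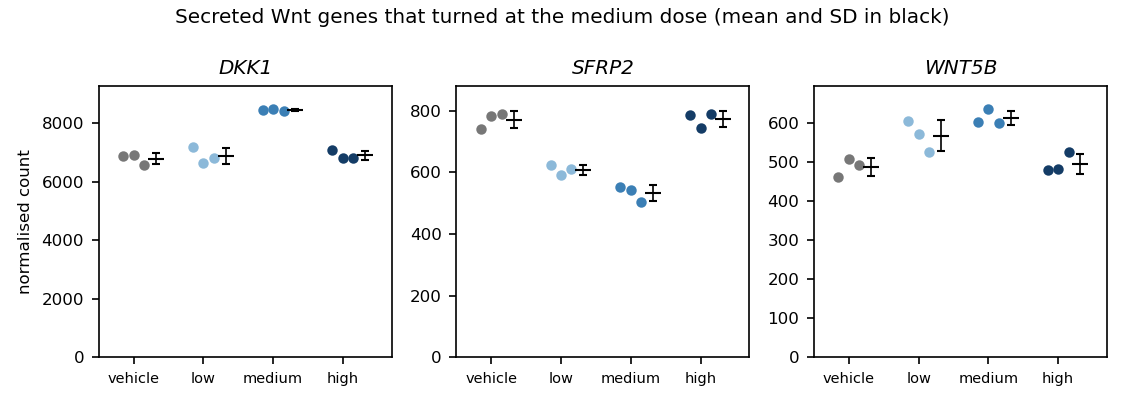
Normalised counts of DKK1, SFRP2 and WNT5B in each library by group, with mean and SD in black. The medium dose libraries stand above vehicle for DKK1 and WNT5B and below it for SFRP2, and the high dose libraries overlap vehicle for all 3.

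SFRP1, the most abundant SFRP at 1037 ± 10.4 normalised counts per kilobase with vehicle, had 4661, 4647 and 4575 normalised counts with vehicle and 3827, 3824 and 4014 at the high dose (log2 fold change -0.25, DESeq2 adjusted p 9.87e-15). DKK3, a divergent Dickkopf that is not a classical LRP blocker, had 4279, 4229 and 4278 with vehicle and 5139, 5231 and 5280 at the high dose (0.29, DESeq2 adjusted p 6.37e-23), and its medium and low dose libraries lay between. USP47 on the opposite strand overlaps 47.5% of the DKK3 exon bases and went from 1844 to 2085 normalised counts. SFRP5 was near the lower limit, at 12.3, 19.3 and 15.6 with vehicle and 12.7, 12.6 and 4.68 at the high dose (DESeq2 adjusted p 0.304).

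Of the TCF/LEF factors, TCF7 was the DEG at the high dose. TCF7 (ENSG00000081059, chromosome 5, 134114681 to 134151865), a DNA-binding partner of beta-catenin and itself a target, had 1512, 1495 and 1536 normalised counts with vehicle and 1431, 1350 and 1329 at the low dose. It fell to 1160, 1241 and 1251 at the medium dose and to 828, 842 and 932 at the high dose, and the 4 groups did not overlap. The log2 fold changes were -0.31 (DESeq2 adjusted p 4.92e-07) and -0.80 (SE 0.0586, adjusted p 2.15e-41), and the low dose value of -0.14 had an adjusted p of 0.165. TCF7L2 had 437, 418 and 406 with vehicle and 307, 313 and 338 at the high dose (-0.40, DESeq2 adjusted p 0.000104). Its deposited values were not whole in 10 libraries. TCF7L1, mostly known as a repressor, had 107, 103 and 119 and then 99.6, 98.2 and 118 (-0.05, DESeq2 adjusted p 0.842). LEF1 was barely detected, at 5.12, 2.63 and 3.12 normalised counts with vehicle, 0 in all 3 medium dose libraries and 3.47, 1.80 and 1.87 at the high dose (DESeq2 adjusted p 0.72).

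Among the scaffolds and feedback genes, AXIN1 rose while AXIN2 and NKD1 fell at the high dose. AXIN1 (ENSG00000103126, chromosome 16, 287440 to 352723), the constitutive scaffold of the destruction complex, had 607, 651 and 601 normalised counts with vehicle and 609, 599 and 616 at the low dose. It rose to 728, 783 and 763 at the medium dose (log2 fold change 0.29, DESeq2 adjusted p 0.000134) and to 1100, 1102 and 1145 at the high dose (0.85, SE 0.0651, adjusted p 2.05e-37). Vehicle and low dose libraries overlapped, and the medium and high dose libraries stood above them in separate ranges. AXIN2 (ENSG00000168646, chromosome 17, 65528563 to 65561648), the induced scaffold often read as a gauge of canonical signalling, had 212, 211 and 196 with vehicle and 200, 207 and 188 at the low dose. It had 191, 194 and 166 at the medium dose (-0.17, DESeq2 adjusted p 0.376) and 118, 128 and 153 at the high dose (-0.63, SE 0.14, adjusted p 2.91e-05). The high dose libraries of AXIN2 stood below all others, and without high replicate 1 its fold change of -0.55 no longer met the fold threshold. A gene on the same strand, ENSG00000266076, overlaps 25.3% of the AXIN2 exon bases.

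NKD1 (ENSG00000140807, chromosome 16, 50548396 to 50649249), a Dishevelled antagonist induced by the pathway, had 35.9, 23.7 and 26.0 normalised counts with vehicle and 21.2, 28.6 and 20.9 at the low dose. It had 11.6, 19.6 and 8.48 at the medium and 8.10, 9.91 and 8.42 at the high dose. Both upper doses lay below every vehicle library, and they overlapped each other. Its log2 fold changes were -1.10 (SE 0.431, DESeq2 adjusted p 0.0389) and -1.68 (SE 0.459, adjusted p 0.000757). NKD1 was the DEG of the medium dose, and that call was lost without any 1 of the 3 vehicle replicates, without medium replicate 1 or without medium replicate 3, with fold changes between -1.52 and -0.85 over the 6 omissions. It was lost as well with the replicate number as a block (DESeq2 adjusted p 0.0782), with the 2 groups alone (0.0633) and without independent filtering (0.0842).

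The E3 ligases that remove Frizzled from the surface did not pass the test in the main DESeq2 fit. ZNRF3 had 555, 533 and 587 normalised counts with vehicle, then 491, 540 and 452 (low dose), 538, 478 and 498 (medium) and 484, 496 and 513 (high) (log2 fold change -0.16, DESeq2 adjusted p 0.107). Its high dose libraries lay below the vehicle range, and its high dose adjusted p ran from 0.00296 to 0.314 over 16 DESeq2 and edgeR fits. RNF43 had 18.4, 12.3 and 17.7 with vehicle, then 13.5, 13.3 and 22.0 (low dose), 24.3, 15.8 and 18.8 (medium) and 27.8, 22.5 and 25.3 (high). The high dose libraries of RNF43 lay above vehicle (0.65, SE 0.406, DESeq2 adjusted p 0.196), and the edgeR test put it past the threshold (adjusted p 0.0458). ENSG00000285897 on the same strand overlaps 68.4% of the RNF43 exon bases, and 4 libraries had a value for it that was not whole.

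**Figure D4:**
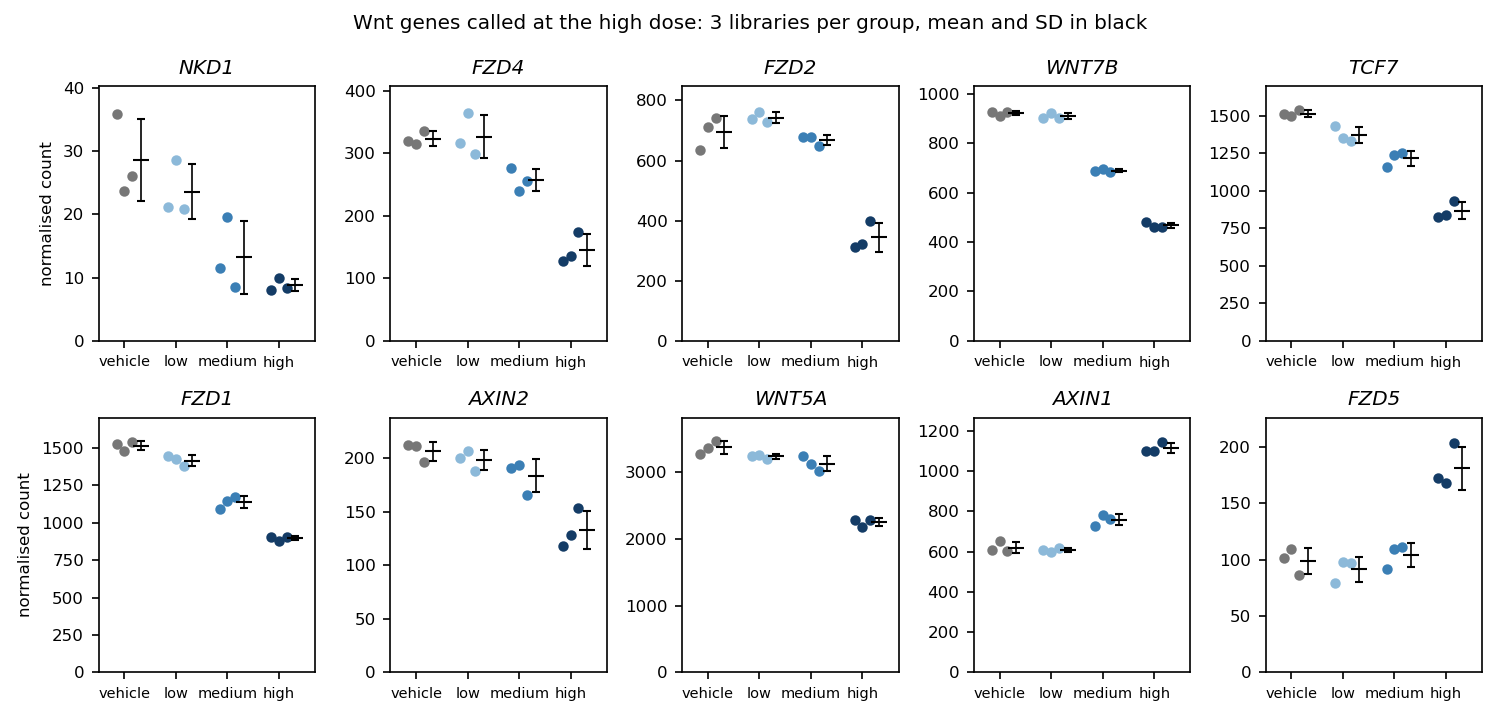
Normalised counts in each of the 12 libraries, by group, of the 10 Wnt genes that were DEGs at the high dose, with mean and SD in black. FZD5 and AXIN1 are higher at the high dose and the other 8 are lower, with no high dose library inside the vehicle range.

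The remaining 19 of the 48 genes had a mean under 10 normalised counts. WNT1, WNT2, WNT3A, WNT7A, WNT9B and FZD10 had 0 counts in all 12 libraries. A 0 in a single library allows an expected count of up to 3, and the 12 together allow less in each. WNT8A, WNT8B and DKK4 reached at most 1 count in a library, WNT6 reached 3, DKK2 and WNT10A 4, LEF1 5, WNT4 6, SFRP4 7, WNT16 10, WNT9A and WNT10B 12 and WNT11 13. WNT11 had 9.22, 9.64 and 13.5 normalised counts with vehicle and 3.47, 4.50 and 5.61 at the high dose, ranges that did not overlap (log2 fold change -1.23, DESeq2 adjusted p 0.102), and it was named after its values were seen because the edgeR test called it.

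Set directly against the medium dose, the high dose had 3 DEGs among 30 tested Wnt genes (10%), 1 higher and 2 lower, beside 10.2% of all tested genes (4.58% higher and 5.61% lower). The libraries of the 2 doses did not overlap for 20 of the 29, beside 59.2% of all genes with that mean. FZD5 was higher by a log2 fold change of 0.80 (DESeq2 adjusted p 1.32e-05), and FZD2 and FZD4 were lower, by -0.95 (SE 0.0895, adjusted p 4.58e-25) and -0.82 (adjusted p 5.99e-09). An adjusted p under 0.05 without the fold threshold was reached by 18 of the 30, beside 40.9% of all tested genes. These included AXIN1 (0.56, DESeq2 adjusted p 4.5e-17), TCF7 (-0.49, adjusted p 2.99e-15), WNT5A (-0.48, adjusted p 1.33e-31) and AXIN2 (-0.46, adjusted p 0.00432). NKD1 did not pass the test between the 2 upper doses (-0.59, DESeq2 adjusted p 0.368). The comparison shares its high dose libraries with the one against vehicle.

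A further 92 genes of the pathway were taken from lists by role, 72 of them with a mean of at least 10 normalised counts and 4 at 0 throughout. At the high dose 23 of 78 tested were DEGs (29.5%), 7 higher and 16 lower, beside 18.2% of all tested genes (8.66% higher and 9.57% lower), and the median log2 fold change of the 72 was -0.10. With total counts as size factors the count was 27, 5 higher and 22 lower. At the medium dose 4 of 70 were (5.71%, beside 3.81%), and at the low dose the DESeq2 and edgeR tests called 0 of 54 and 0, with 12 of 88 genes at an unadjusted p under 0.05 (13.6%, beside 5.01% of all genes). The unadjusted shares were again not matched for level. Of genes for secretion, R-spondin receptors and other extracellular modulators, 2 of 14 tested (14.3%) were DEGs at the high dose, both R-spondin receptors and both lower. LGR6 went from 117 ± 12.5 normalised counts with vehicle to 80.0 ± 15.4, 43.1 ± 5.27 and 13.5 ± 0.399 at the low, medium and high dose (log2 fold change -3.12 for the high dose, SE 0.299, DESeq2 adjusted p 2.61e-24). LGR4 went from 1813 ± 48.0 to 1105 ± 14.6 (-0.71, SE 0.0493, DESeq2 adjusted p 2.93e-46). WLS and PORCN, which Wnt proteins need for secretion and lipid attachment, fell by less than the fold threshold (-0.53 and -0.29).

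In the destruction complex and Dishevelled list, 5 of 17 tested genes (29.4%) were high dose DEGs, with 4 higher and 1 lower. Of all tested genes, 18.2% were (8.66% higher and 9.57% lower). DVL2, a Dishevelled that relays the Frizzled signal, went from 1170 ± 34.1 to 1986 ± 43.1 normalised counts (log2 fold change 0.76, DESeq2 adjusted p 9.79e-56). CSNK1E, a kinase acting on Dishevelled with 18.5% of its exon bases overlapped on the same strand, rose by 0.75 (DESeq2 adjusted p 3.93e-71), and TNKS2, a tankyrase that turns over Axin, by 0.68 (adjusted p 1.01e-60). APC fell by less than the fold threshold (-0.53, DESeq2 adjusted p 9.49e-27), and the kinase GSK3B was at 0.01 (adjusted p 0.913). Of beta-catenin and its nuclear partners, 4 of 15 (26.7%) were DEGs, 1 higher and 3 lower, beside the same 18.2%. Among corepressors of the Groucho family, TLE4 and TLE1 were DEGs in opposite directions, and TLE2, TLE3 and TLE5 were not DEGs. TLE4 went from 1443 ± 41.8 to 576 ± 48.1 (-1.33, DESeq2 adjusted p 7.13e-92) and TLE1 from 628 ± 8.52 to 1177 ± 26.0 (0.91, adjusted p 2.9e-45). BCL9L, a beta-catenin coactivator, fell from 4224 ± 151 to 2247 ± 142 (-0.91, DESeq2 adjusted p 2.18e-102). On the opposite strand CXCR5, UPK2 and MIR4492 overlap 37.5% of its exon bases. CXCR5 went from 8.54 normalised counts with vehicle to 25.7 at the high dose, and UPK2 from 1.28 to 0.386. Beta-catenin itself (CTNNB1) changed by -0.36 (DESeq2 adjusted p 1.59e-22).

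Of the planar polarity and alternative receptor genes, 5 of 16 tested (31.2%) were DEGs at the high dose, all 5 lower, beside 18.2% of all tested genes as DEGs and 9.57% as lower ones. PRICKLE2 went from 849 ± 30.2 to 252 ± 4.64 normalised counts (log2 fold change -1.75, DESeq2 adjusted p 1.98e-103), PRICKLE1 from 401 ± 11.0 to 190 ± 26.3 (-1.09, adjusted p 7.51e-22) and DAAM2 from 47.1 ± 4.90 to 20.2 ± 5.62 (-1.25, adjusted p 0.000287). Opposite-strand genes overlap 25.3%, 23.7% and 30.1% of the exon bases of these 3 genes. Of genes often used as beta-catenin targets, 7 of 16 tested (43.8%) were DEGs, 2 higher and 5 lower. Among all tested genes 18.2% were (8.66% higher and 9.57% lower). Of the 7, 6 had a mean of at least 10 normalised counts. TNFRSF19 went from 2328 ± 34.4 to 736 ± 28.3 (-1.66, DESeq2 adjusted p 9.23e-195) and BMP4, with 16.3% of its exon bases overlapped on the opposite strand, from 211 ± 10.4 to 40.5 ± 7.61 (-2.37, adjusted p 5.87e-39). CCN4, the largest change of that list, was at -3.28. MYC and FOSL1, named after their values were seen, were the 2 higher ones, MYC from 921 ± 58.9 to 2797 ± 154 (1.60, DESeq2 adjusted p 1.46e-180) and FOSL1 from 3275 ± 184 to 5925 ± 353 (0.86, adjusted p 2.55e-55). CCND1, overlapped by LTO1 over 10.4% of its exon bases, did not pass the test at the high dose (-0.05, DESeq2 adjusted p 0.378). Members of this list therefore went both ways.

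**Figure D5:**
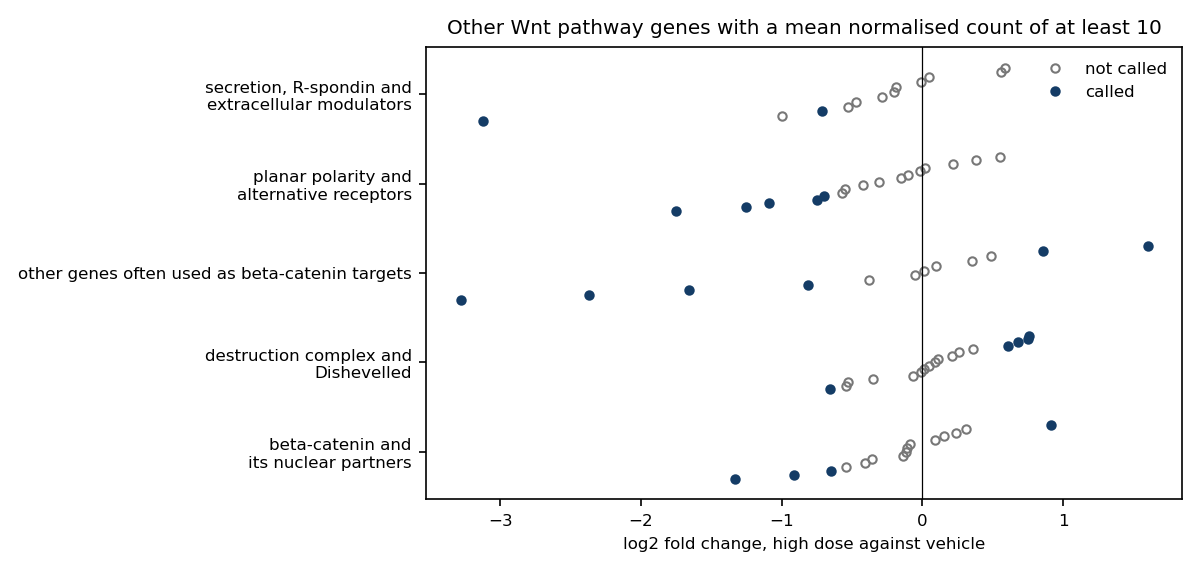
Log2 fold change at the high dose (horizontal axis) of the other pathway genes with a mean of at least 10 normalised counts, in 5 lists by role, with DEGs as filled points (called). The planar polarity DEGs are all lower, with PRICKLE2 at -1.75, while the target list runs from -3.28 for CCN4 to 1.60 for MYC.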

How the data were processed

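RNA of SW1783 cells was sequenced as 4 groups of 3 libraries named by their labels. The authors made strand-specific paired-end libraries and, per the labels, used FastQC 0.11.9, Trim Galore 0.6.5, STAR 2.7.3a and RSEM 1.3.3 on GRCh38. The strand setting of RSEM is not given in the sources used here. The deposited values are expected counts, in which RSEM divides a read of several possible genes among them. Of them 8.75% were not whole, and they were rounded to whole numbers. Each column was matched to a library through a code in its description, and 0 columns were left over.

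Genes at 0 in all libraries were dropped, and a two-sided Wald test in DESeq2 1.42.0 (R 4.3.3) took all 12 libraries and the 4 groups as its model, a test the study names as well. DEGs passed 0.05 in the p adjusted over all tested genes (Benjamini-Hochberg) and a fold change of 1.5. Independent filtering at 0.05 left genes with means under 1.72 (high), 18.3 (medium), 263 (low) and 5.77 (high against medium) without an adjusted p. Normalised counts are counts divided by size factors, and levels of different genes were compared only per kilobase of the Ensembl canonical transcript. Symbols, coordinates (1-based) and exon overlaps came from GENCODE v44, which held 93.2% of the IDs and is later than the annotation counted on. Replicates differed by more than counting noise (chi-square per degree of freedom 2.06 to 3.77). The steps were tested on simulated data.

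Genes named were those called with a mean of at least 10 normalised counts, the feedback genes and co-receptors, the most abundant member of each class and the 3 largest called changes of each other list. Values of further measured members, and of WLS, PORCN, APC, GSK3B, CTNNB1, CCND1, MYC and FOSL1, were added after the values were seen. The members and lists were chosen with earlier results of these data known. Alternatives were the edgeR 4.0.16 quasi-likelihood test, other size factors, filters and samples, no fold threshold, a replicate block and leaving out each replicate; edgeR with the block was added after seeing the data. Part of the leukocyte marker list is not reported here.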

Additional observations from a re-analysis of the deposited data

Results flagged for a closer look

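DKK1, SFRP2 and WNT5B stood out because their change between the medium and the high dose ran against their change between vehicle and the medium dose, and both passed the DESeq2 test. DKK1 was higher by 0.32 on the log2 scale at the medium dose and then lower by -0.29 at the high against the medium dose (SE 0.0318, adjusted p 5.95e-19). SFRP2 was at -0.53 and then at 0.54 (SE 0.072, adjusted p 7.38e-13), and WNT5B at 0.33 and then at -0.31 (SE 0.0815, adjusted p 0.000656). In all 3, the 3 medium dose libraries lay outside the range of both other groups. The genes were picked for these differences, so that separation adds nothing to the tests. Both comparisons use the medium dose libraries, so they are not independent of each other. Of all genes tested at the medium dose, 2.02% turned in this way. With each library of the 2 groups left out in turn, DKK1 stayed between 0.29 and 0.33 at the medium dose and between -0.31 and -0.28 at the high against the medium dose. SFRP2 stayed between -0.56 and -0.49 and between 0.50 and 0.57, and WNT5B between 0.29 and 0.36 and between -0.35 and -0.28.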

How the results depend on the processing

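The replicate numbers were not taken to pair the groups compared: correlations of same-numbered deviations ran from -0.118 to -0.007 between vehicle and the doses and from 0.035 to 0.221 between medium and high. Between medium and low, which were not compared, all 3 exceeded 0.1 (0.124 to 0.193). Not every library correlated best with its own number. With the replicate block, Wnt DEGs stayed at 10 at the high dose and 3 at the high against the medium dose, and went to 0 at the medium dose (NKD1 -1.14, DESeq2 adjusted p 0.0782). Without a fold threshold, 19 Wnt genes passed at the high dose, 12 at the medium, 1 at the low and 18 between high and medium, and 49, 31 and 4 other pathway genes at the high, medium and low doses. The medium dose count was 2 with total counts as size factors (SFRP2 at -0.65 joined NKD1), and 0 without independent filtering (NKD1 adjusted p 0.0842) or with the 2 groups alone (0.0633). Leaving out 1 replicate gave 9 to 11 Wnt DEGs at the high dose, 0 to 1 at the medium, 0 at the low and 3 between high and medium, and 21 to 24, 4 and 0 other pathway DEGs. Total counts as size factors gave, for the high dose, 27 other pathway DEGs (5 up and 22 down, against 7 and 16). edgeR called 12 Wnt genes at the high dose, with RNF43 and WNT11 added. Of 1077 refits of 72 fold changes, 1049 kept direction and side of the threshold, 12 lost the threshold, 5 gained it and 11 changed sign, all 11 in fold changes near 0 at the high dose. With total counts as size factors, which moved the median of all genes by -0.113, DKK1 went to -0.09, SFRP2 to -0.11 and WNT5B to -0.09, while FZD7 at -0.68 became a DEG and TNKS2 at 0.57 ceased to be one. Over replicates left out, SFRP2 lay between -0.02 and 0.03, TCF7L1 between -0.15 and 0.00, WNT3 between -0.09 and 0.08 and WNT5B between -0.02 and 0.05. The cause of these shifts was not tested. Wnt genes with few counts, such as NKD1, RNF43, WNT11 and LEF1, are limited by depth, and the low dose comparison says little of genes under its filter.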
